A study of Mus musculus with 6 samples.

Results

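The genes of sphingosine 1-phosphate (S1P) signalling and metabolism were examined in mouse heart: the receptors S1pr1, S1pr2, S1pr3, S1pr4 and S1pr5, the kinases Sphk1 and Sphk2, the exporter Spns2, the phosphatase Sgpp1 and the lyase Sgpl1. These 10 genes were represented by 18 of the 45037 probe sets tested, namely every probe set annotated to exactly 1 of these symbols, with 1 to 3 probe sets per gene. The group was chosen by gene name with earlier results of the same comparison known, among them the level of S1pr3, so the differences of the members between genotypes are given as descriptions and not as tests.

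Groups of 3 hearts from 9-month-old mice were compared, with 1 Affymetrix array per heart. The GRK2+/- mice were heterozygous for the Adrbk1tm1Mca targeted allele of the G protein-coupled receptor kinase GRK2 on a C57BL/6J background (strain B6.129-Adrbk1tm1Mca/J, over 20 backcross generations), and the WT mice were C57BL/6J littermates. The allele is not restricted to a cell type, so all cells of the GRK2+/- hearts carried it. The sex of the animals was not given in the sources used here. RNA came from the upper piece of hearts stopped in diastole with cold potassium chloride. Genes of cardiomyocytes such as Myl2, the ventricular myosin light chain (mean 15.07 in GRK2+/- and 15.09 in WT hearts, log2), were near the top of the scale. The atrial light chain Myl7 (5.613 in GRK2+/- and 5.499 in WT hearts) lay below the median probe set (6.28). Of the other atrial markers, Sln, Bmp10 and Dkk3 also had means below it. Nppa (9.97 in GRK2+/- and 11.17 in WT hearts) and Myl4 (7.24 in GRK2+/- and 7.10 in WT hearts) lay above it. Grk2 itself was not analysed here, so the targeted gene did not check the genotypes.

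S1P is a lipid signal made inside cells when a sphingosine kinase phosphorylates sphingosine. Spns2 carries it out of endothelial cells, G protein-coupled receptors on neighbouring cells read it, and phosphatases return it to sphingosine or the lyase Sgpl1 breaks it down for good. In the heart and its vessels S1pr1 is best known from endothelium and also acts in cardiomyocytes, whereas S1pr3 is known from vascular smooth muscle, fibroblasts and endothelium and couples to more classes of G protein. GRK2 phosphorylates agonist-bound receptors, S1pr1 included, and so limits their signalling.

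S1pr3 was the receptor with a large difference, and Sgpp1 was the enzyme gene with 2 of its 3 probe sets apart between genotypes in the same direction. The windows around their transcription starts (250 bases before to 50 after, RefSeq, build GRCm38.p6) are shown because these 2 members had more than 1 probe set without overlap between groups. The S1pr3 window is chr13:51408368-51408667 on the + strand and the Sgpp1 window is chr12:75735680-75735979 on the - strand. Capitals mark matches to the motifs searched.
S1pr3: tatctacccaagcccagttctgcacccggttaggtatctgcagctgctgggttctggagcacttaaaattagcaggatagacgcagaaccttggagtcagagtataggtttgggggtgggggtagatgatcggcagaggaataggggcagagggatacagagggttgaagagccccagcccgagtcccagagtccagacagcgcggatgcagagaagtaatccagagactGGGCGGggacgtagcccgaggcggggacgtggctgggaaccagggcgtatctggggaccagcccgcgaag
Sgpp1: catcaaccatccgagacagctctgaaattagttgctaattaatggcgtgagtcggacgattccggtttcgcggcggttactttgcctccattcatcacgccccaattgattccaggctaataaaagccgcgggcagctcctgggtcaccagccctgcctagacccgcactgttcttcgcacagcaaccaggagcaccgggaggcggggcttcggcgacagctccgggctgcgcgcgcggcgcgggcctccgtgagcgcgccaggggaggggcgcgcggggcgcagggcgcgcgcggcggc
Both strands were searched for the GC box GGGCGG, the cyclic AMP response element TGACGTCA, the E-box CACGTG and the TATA box TATAAA. The S1pr3 window held 1 GC box, a motif found in 35.7% of the 32851 windows of this length, and the Sgpp1 window held none of the 4 motifs, so no matches overlapped. The cyclic AMP element occurred in 1.79%, the E-box in 7.15% and the TATA box in 13.6% of all windows. The Sgpp1 window was richer in CpG, with 36 CpG and 66% G and C, than the S1pr3 window, with 14 CpG and 59% G and C. Windows matched 9 of the 10 members, all but S1pr1. A GC box stood in a window of 5 of these 9 genes, and the cyclic AMP element in a window of Sphk2 and of S1pr2. The members were spread over chromosomes 3, 7, 9, 10, 11, 12 and 13. S1pr2 and S1pr5 were the closest pair in gene order on chromosome 9, with 17 annotated genes between them.

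The deposited values were on a log2 scale with array medians between 6.25 and 6.31, and 5 of the 18 member probe sets lay below the median probe set. Differences are GRK2+/- minus WT on that scale with limma's standard error (SE, n = 3 hearts per group), fitted over all 45037 probe sets. Of the 18 member probe sets, 11 were higher and 7 lower on average in GRK2+/- hearts. All 3 GRK2+/- values lay above all 3 WT values for 6 of the 18, and below them for 0. Over all tested probe sets these shares were 6.76% higher and 11.2% lower. Because the members were chosen with this contrast known, nothing is read from that count. With the median of each array subtracted, 5 of the 18 lay above and 0 below, against 4234 and 3431 of the 45037 probe sets. Of all probe sets without overlap, 55.2% were then higher, instead of 37.7% as deposited. The member lost was the S1pr2 probe set 1428176_at. The median difference was 0.061 over the 18 member probe sets and -0.021 over all. With limma and Benjamini-Hochberg adjustment, 0 of the 45037 probe sets (0%) and 0 of the 18193 genes (0%) passed an adjusted p of 0.05, so no member passed, and the smallest adjusted p were 0.103 and 0.0632. The number of probe sets past the threshold was 41, 9 and 6 without GRK2+/- heart 1, 2 or 3, and of genes 56, 3 and 4. At an unadjusted p under 0.05 there were 5780 probe sets (12.8%), 5 of them members. An exact permutation test of 3 hearts against 3 cannot give a two-sided p below 0.1.

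**Figure D1:**
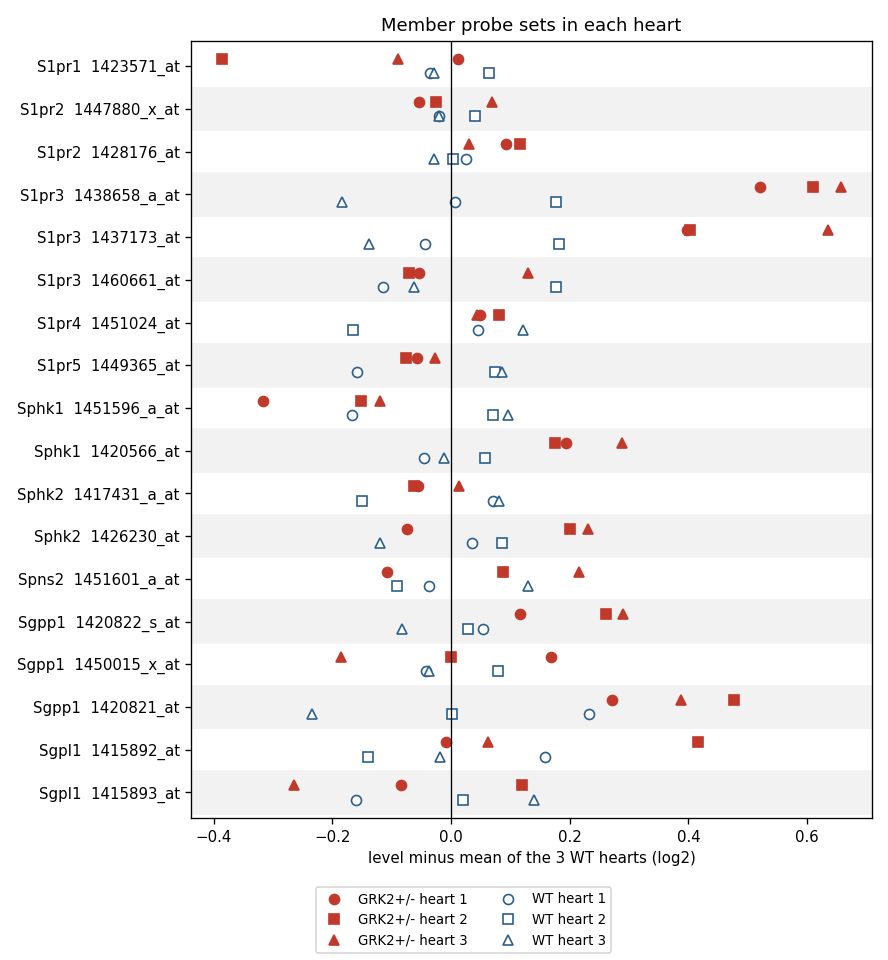
Each row is 1 member probe set, and each symbol is 1 heart at its log2 level minus the mean of the 3 WT hearts (filled red, GRK2+/-; open blue, WT). The GRK2+/- symbols of 2 S1pr3 rows lie well to the right of the WT symbols, by 0.60 and 0.48 on average, and in most other rows the genotypes mix.

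Among the receptors, S1pr3 had the widest gap between genotypes. Its brightest probe set, 1438658_a_at, read 10.26, 10.35 and 10.40 in GRK2+/- hearts 1, 2 and 3, against 9.74, 9.92 and 9.56 in WT hearts 1, 2 and 3. Every GRK2+/- heart was above every WT heart, and the lowest GRK2+/- value stood clear of the highest WT value, in WT heart 2. The group means were 10.33 ± 0.07 in GRK2+/- and 9.74 ± 0.18 in WT hearts (SD, n = 3 each), a difference of 0.60 ± 0.10 (SE), or 1.51-fold. The second probe set, 1437173_at, read 8.07, 8.08 and 8.31 in GRK2+/- hearts, against 7.63, 7.86 and 7.54 in WT hearts. Again the groups did not overlap, and the difference was 0.48 ± 0.10, or 1.39-fold. In both probe sets GRK2+/- heart 3 was the highest and WT heart 3 the lowest of the 6.

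The third S1pr3 probe set, 1460661_at, gave a different picture. It read 6.39, 6.37 and 6.57 in GRK2+/- hearts, against 6.33, 6.62 and 6.38 in WT hearts. The groups overlapped fully, with a difference of 0.0016 ± 0.095 and a 95% interval from -0.21 to 0.21, which does not reach the lower bound of either of the other probe sets (0.38 and 0.25). Its mean level of 6.45 was close to the median probe set (6.28). The mean of the 3 probe sets gave 0.36 in place of 0.60. By size of difference the first probe set ranked within the top 0.249% and the second within the top 0.593% of all probe sets, values that led to the choice of these genes.

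**Figure D2:**
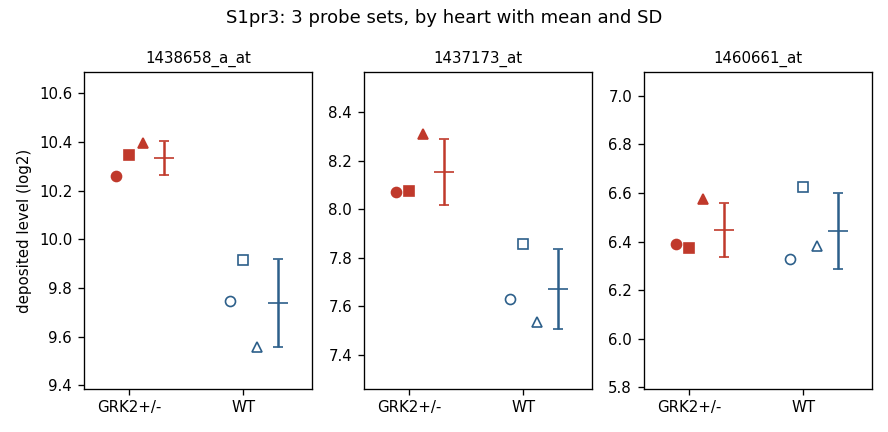
The deposited log2 level of S1pr3 is plotted by heart for each of its 3 probe sets (circle, square and triangle, hearts 1, 2 and 3), with the group mean and SD beside the symbols and the same span on each vertical axis. In 1438658_a_at and 1437173_at all GRK2+/- hearts lie above all WT hearts, whereas in 1460661_at the means are 6.446 and 6.445.

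S1pr1, the endothelial receptor that keeps vessels tight and guides lymphocyte exit, did not share that direction. Its only probe set read 8.95, 8.55 and 8.85 in GRK2+/- hearts, against 8.90, 9.00 and 8.91 in WT hearts. GRK2+/- heart 2 was the lowest of the 6, and GRK2+/- heart 1 lay inside the WT range. The difference was -0.15 ± 0.10 with a 95% interval from -0.38 to 0.07, and it was -0.039 without GRK2+/- heart 2 and -0.24 without GRK2+/- heart 1. The WT hearts differed little among themselves (SD 0.055), whereas the GRK2+/- hearts were more spread (SD 0.21).

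S1pr2, a receptor that opposes cell migration, had 2 probe sets above the table median. The brighter one, 1447880_x_at, read 8.21, 8.24 and 8.34 in GRK2+/- hearts and 8.25, 8.31 and 8.25 in WT hearts, a difference of -0.0031 ± 0.069 that turned to 0.026 after centring each array. The suffix marks a probe set that may also bind other transcripts. The other, 1428176_at, read 7.05, 7.07 and 6.99 in GRK2+/- hearts and 6.98, 6.96 and 6.93 in WT hearts. These groups did not overlap as deposited, but the gap between GRK2+/- heart 3 and WT heart 1 was small and was lost on centring, and the difference of 0.080 ± 0.067 had a 95% interval from -0.069 to 0.23.

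S1pr4 and S1pr5, receptors best known from leukocytes and, for S1pr5, from natural killer cells and oligodendrocytes, were even between genotypes within their error. S1pr4 read 6.66, 6.69 and 6.65 in GRK2+/- hearts and 6.65, 6.44 and 6.73 in WT hearts, a difference of 0.058 ± 0.084 (95% interval -0.13 to 0.25), with WT heart 2 as the low one. Without WT heart 2 the difference was -0.025, and without WT heart 3 it was 0.12. S1pr5 read 4.968, 4.950 and 4.998 in GRK2+/- hearts and 4.867, 5.099 and 5.110 in WT hearts, a difference of -0.053 ± 0.082 (95% interval -0.24 to 0.13). That probe set was the 1 member below the 25th percentile of level (5.07), where values may carry little signal over background, which was not measured. The S1pr5 difference was -0.13 without WT heart 1, -0.017 without WT heart 2 and -0.011 without WT heart 3. Lymphocyte and natural killer cell markers, listed here because S1pr1, S1pr4 and S1pr5 are expressed in those cells, had 9 of 11 genes measured and 0 of them apart between groups, with a median difference of -0.075 and a mean level of 6.33 to 6.38 in GRK2+/- and 6.31 to 6.39 in WT hearts. Of these 9, 3 were higher and 6 lower on average. The pan-leukocyte gene Ptprc had the widest difference, 0.42 ± 0.12 with a 95% interval from 0.14 to 0.69, though 1 of its 2 probe sets was in that direction and the groups overlapped. The T cell genes Cd3e and Cd4 were both at -0.12 (SE 0.071 and 0.086), the B cell gene Cd79a at -0.075 ± 0.065 and Nkg7, of natural killer and cytotoxic T cells, at -0.19 ± 0.08. After quantile normalisation 1 of the 9 was apart and higher, against 1593 of all 18193 genes.

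The kinases that make S1P gave no single direction. For Sphk1, the inducible cytosolic kinase, the probe set 1451596_a_at read 5.52, 5.68 and 5.72 in GRK2+/- hearts and 5.67, 5.91 and 5.93 in WT hearts. WT heart 1 lay among the GRK2+/- values, and the difference was -0.20 ± 0.09, with a 95% interval from -0.40 to 0.0084. The other Sphk1 probe set, 1420566_at, read 5.43, 5.41 and 5.52 in GRK2+/- hearts and 5.19, 5.29 and 5.22 in WT hearts, without overlap, and differed the other way by 0.22 ± 0.07. Both lay below the median probe set, and their mean gave 0.012, so no direction could be given for the gene.

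Sphk2, the kinase found in the nucleus and mitochondria as well as the cytosol, overlapped in both probe sets. The brighter one, 1417431_a_at, read 7.91, 7.90 and 7.98 in GRK2+/- hearts and 8.03, 7.81 and 8.04 in WT hearts, a difference of -0.035 ± 0.081 (95% interval -0.22 to 0.15). It was -0.11 without WT heart 2, -0.00010 without WT heart 1 and 0.0051 without WT heart 3. The other, 1426230_at, read 6.96, 7.23 and 7.26 in GRK2+/- hearts and 7.07, 7.12 and 6.91 in WT hearts, a difference of 0.12 ± 0.10 (95% interval -0.098 to 0.33). In it GRK2+/- heart 1 lay within the WT range while hearts 2 and 3 lay above it. Spns2, the endothelial exporter, read 7.54, 7.73 and 7.86 in GRK2+/- hearts and 7.61, 7.55 and 7.77 in WT hearts, and its difference of 0.065 ± 0.097 (95% interval -0.15 to 0.28) was smaller than the SD within either group (0.16 in GRK2+/- and 0.12 in WT hearts). The Spns2 value was 0.15 without GRK2+/- heart 1, -0.010 without GRK2+/- heart 3, 0.019 without WT heart 2 and 0.13 without WT heart 3.

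Of the enzymes that remove S1P, the phosphatase Sgpp1, which acts in the endoplasmic reticulum, was higher in GRK2+/- hearts in 2 of 3 probe sets. The brightest, 1420822_s_at, read 8.26, 8.41 and 8.44 in GRK2+/- hearts and 8.20, 8.17 and 8.06 in WT hearts. No value overlapped, with the narrowest gap between GRK2+/- heart 1 and WT heart 1, and the difference was 0.22 ± 0.08, or 1.17-fold. The dimmest, 1420821_at, read 5.91, 6.11 and 6.02 in GRK2+/- hearts and 5.87, 5.64 and 5.40 in WT hearts. Here too the groups did not overlap, and the difference was 0.38 ± 0.11, or 1.30-fold, from levels below the median probe set.

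The remaining Sgpp1 probe set, 1450015_x_at, read 7.74, 7.57 and 7.39 in GRK2+/- hearts and 7.53, 7.65 and 7.53 in WT hearts. The GRK2+/- hearts spread to both sides of the WT hearts, with heart 1 highest and heart 3 lowest, the reverse of their order in 1420822_s_at, and the difference was -0.0059 ± 0.094 (95% interval -0.22 to 0.20). The suffixes of 1450015_x_at and 1420822_s_at mark probe sets that may bind more than 1 transcript. The mean of the 3 gave 0.20. Sgpl1, the lyase, gave opposite signs in its 2 probe sets. The brighter, 1415892_at, read 6.90, 7.32 and 6.97 in GRK2+/- hearts and 7.06, 6.76 and 6.88 in WT hearts, a difference of 0.16 ± 0.12 (95% interval -0.11 to 0.42) that was 0.027 without GRK2+/- heart 2, which held the highest value. It was 0.24 without GRK2+/- heart 1, 0.24 without WT heart 1 and 0.087 without WT heart 2. The other, 1415893_at, read 5.88, 6.08 and 5.70 in GRK2+/- hearts and 5.80, 5.98 and 6.10 in WT hearts, a difference of -0.076 ± 0.11 (95% interval -0.32 to 0.17).

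**Figure D3:**
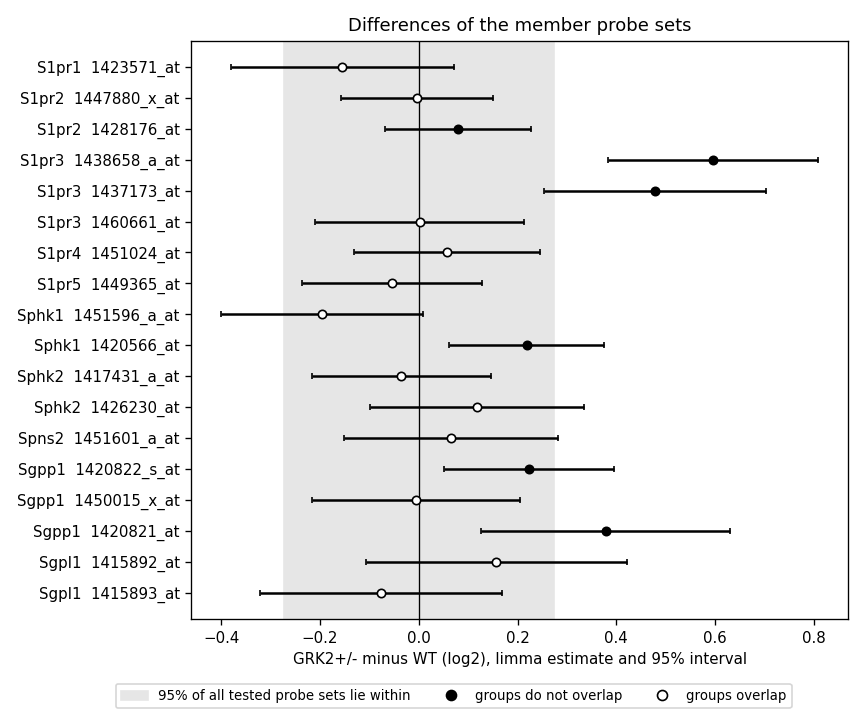
The difference GRK2+/- minus WT (log2) of each member probe set is drawn with limma's 95% interval, filled where the 3 hearts of each group do not overlap, over a grey band that holds 95% of all tested probe sets (0.27 to either side of 0). Outside the band lie 2 S1pr3 probe sets (0.60 and 0.48) and 1 Sgpp1 probe set (0.38).

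Probe sets of 1 gene thus differed in sign for 5 of the 6 members with more than 1 probe set. For S1pr2 and Sgpp1 the negative one was near 0 (-0.0031 ± 0.069 and -0.0059 ± 0.094) and turned positive after centring (0.026 and 0.023). S1pr3 was the 1 gene whose probe sets all had the same sign, and there 1 of 3 was at 0.0016. The spread between hearts of 1 group was a little wider for the members than for the table, with a median SD of 0.10 in GRK2+/- and 0.13 in WT hearts over the 18 probe sets and 0.088 in GRK2+/- and 0.092 in WT hearts over all. RNA integrity, read as the 3′ level minus the 5′ level of the beta-actin controls, stood at 0.98 ± 0.08 in GRK2+/- and 0.78 ± 0.04 in WT hearts (SD, n = 3 each), and that of Gapdh was 0.030 ± 0.016 in GRK2+/- and 0.0051 ± 0.039 in WT hearts. All 3 GRK2+/- values of beta-actin (0.90, 1.06 and 0.97) lay above all 3 WT values (0.80, 0.80 and 0.73), while those of Gapdh overlapped. The part of RNA integrity in the unequal probe sets and in the member differences was not tested.

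Several cell types that carry S1P receptors had markers that were higher in the same hearts, and in bulk tissue more cells of a type and more RNA per cell cannot be told apart. For genes, 1 probe set per gene was used, and the share without overlap was 7.44% higher and 11.6% lower over all 18193 genes. After centring 1825 of the 18193 were apart and higher and 1399 lower, and after quantile normalisation 1593 and 2012. Of the genes apart, 56.6% were higher after centring instead of 39.0% as deposited. Of the smooth muscle and pericyte markers, cells in which S1pr3 is known, 5 of 10 were apart and higher and 0 lower, with a median difference of 0.19. The mean level of that list was 9.68 to 9.85 in GRK2+/- and 9.57 to 9.65 in WT hearts. Smooth muscle myosin Myh11 read 8.30, 8.21 and 8.17 in GRK2+/- hearts and 7.59, 7.89 and 7.82 in WT hearts (0.47 ± 0.09). Notch3, which maintains smooth muscle of arteries, differed by 0.36 ± 0.10, the growth factor receptor Pdgfrb by 0.31 ± 0.11 and the potassium channel subunit Abcc9 by 0.23 ± 0.08. Of the 2 other markers with the highest levels, Rgs5 differed by 0.14 ± 0.07 without overlap, and smooth muscle actin Acta2 by 0.31 ± 0.18 with overlap. Cspg4, of pericytes, and Cnn1, of smooth muscle, were the 2 markers of the 10 that were lower on average, at -0.17 ± 0.09 and -0.13 ± 0.09, both with overlap; they were added after their values were seen. After quantile normalisation 2 of the 10 were apart. None of the list lay below the 25th percentile of level, and its part in the S1pr3 difference was not tested.

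Endothelial markers had 3 of 10 genes apart and higher and 2 lower, with a median of 0.12 and a mean level of 9.36 to 9.49 in GRK2+/- and 9.18 to 9.36 in WT hearts. The receptor Kdr differed by 0.55 ± 0.12, the junction gene Cldn5 by 0.55 ± 0.16, Tek by 0.23 ± 0.09, Esam by -0.15 ± 0.07 and the receptor Flt1 by -0.059 ± 0.086. Pecam1, which was apart and lower like Esam, was at -0.12 ± 0.07 and was added after its value was seen. After centring 3 were apart and higher and 0 lower, and after quantile normalisation 4 were higher and 1 lower. Over all 18193 genes these counts were 1825 and 1399 after centring, and 1593 and 2012 after quantile normalisation. Fibroblast markers had 2 of 9 apart and higher and 0 lower, with a median of 0.15 and a mean level of 9.861 to 10.001 in GRK2+/- and 9.766 to 9.936 in WT hearts: Col1a1, a fibrillar collagen, differed by 0.30 ± 0.11 and the collagen receptor Ddr2 by 0.15 ± 0.06, while Lum was at -0.18 ± 0.09, Dcn at -0.044 ± 0.080 and Col3a1 at 0.33 ± 0.15, all with overlap. Of these 9, 4 were apart and higher after centring and 1 after quantile normalisation. Cardiomyocyte markers had a median of -0.000020, with 1 of 8 apart and higher (Ryr2, 0.35 ± 0.08) and 0 apart and lower, and a mean level of 13.71 to 13.92 in GRK2+/- and 13.79 to 13.92 in WT hearts. The widest difference of that list ran the other way: the slow myosin heavy chain Myh7 was at -0.78 ± 0.33, with a 95% interval from -1.52 to -0.041 and with overlap. The other 6 cardiomyocyte markers were between -0.026 and 0.10. The part of these cell types in the values of the members was not tested.

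The other marker lists bore on what else the piece held. Neutrophil markers had 3 of 5 measured genes higher without overlap (median 0.33, mean level 7.36 to 7.88 in GRK2+/- and 6.63 to 6.84 in WT hearts), namely S100a9 (2.25 ± 0.33), S100a8 (1.97 ± 0.29) and Csf3r (0.33 ± 0.10), while the granule gene Ngp was at -0.088 ± 0.10. Macrophage markers had 1 of 6 higher (Csf1r, 0.13 ± 0.07) and 2 lower (Cd163, -0.29 ± 0.08, and C1qa, -0.11 ± 0.07), with a median of -0.027. Among the rest, red cell and platelet markers had 1 of 5 higher (Pf4, 0.32 ± 0.10) and 1 lower (Itga2b, -0.18 ± 0.07; median 0.15), lymphatic endothelial markers 1 of 4 higher (Prox1, 0.60 ± 0.10) and 0 lower (median -0.0055), with Lyve1 at -0.30 ± 0.12 and overlapping, and epicardial markers 2 of 4 higher and 0 lower (median 0.28). Atrial markers had 1 of 6 higher and 1 lower (median 0.080): the lower one was Nppa, the atrial natriuretic peptide, at -1.20 ± 0.27. Ventricular markers had 0 of 4 apart (median 0.039).

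Genes around the members were read from 4 lists written out whole: synthesis of sphingolipids from serine, turnover of ceramide and sphingomyelin, carriers, exporters and phosphatases of S1P outside the members, and G proteins and effectors that act behind the receptors. Of 66 genes listed, 61 were measured. Between groups 16 were apart, 11 higher and 5 lower in GRK2+/- hearts, against 7.44% higher and 11.6% lower over all 18193 genes. The count was 26 of 61 without GRK2+/- heart 1, where fewer hearts make separation easier and 33.5% of all genes were apart. None passed an adjusted p of 0.05.

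Among genes that act behind the receptors, 6 of 17 were apart and higher and 0 lower, under each of the 3 scalings. Over all genes as deposited the shares were 7.44% higher and 11.6% lower. The median difference of the list was 0.071 as deposited. Gnai1, an inhibitory G protein subunit to which all S1P receptors couple, read 7.47, 7.46 and 7.70 in GRK2+/- hearts and 7.30, 7.10 and 7.14 in WT hearts (0.36 ± 0.09), with all 3 probe sets higher. Gna13, another G protein subunit, differed by 0.24 ± 0.08 (5 of 7 probe sets higher) and Gnaq, which activates phospholipase C, by 0.19 ± 0.07 (4 of 7).

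Among carriers, exporters and other phosphatases 1 of 12 was apart and higher and 1 lower, and the median was 0.044. The higher one was Plpp3, a cell-surface phosphatase that removes extracellular lipid phosphates including S1P. It read 10.84, 10.79 and 10.91 in GRK2+/- hearts and 10.44, 10.52 and 10.31 in WT hearts, a wide gap with a difference of 0.42 ± 0.08, or 1.34-fold, and both of its probe sets were higher. The lower one was the transporter Abcg2 (-0.20 ± 0.07). Abca1, the cholesterol transporter that builds high-density lipoprotein, was at 0.31 ± 0.11 and overlapped between groups, and Plpp2 was at -0.15 ± 0.09. After centring 3 of the 12 were apart and higher and 1 lower, against 1825 and 1399 of all 18193 genes. After quantile normalisation 1 was higher and 1 lower, the same as deposited, against 1593 and 2012 of all genes.

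Turnover of ceramide and sphingomyelin had 4 of 18 genes apart and higher and 3 lower, with a median of -0.0087 that was 0.020 after centring and 0.0028 after quantile normalisation. Acer3, a ceramidase that frees sphingosine, read 7.11, 7.32 and 7.15 in GRK2+/- hearts and 7.05, 6.81 and 6.76 in WT hearts (0.32 ± 0.09), but 2 of its 4 probe sets were higher. The ceramide kinase Cerk differed by 0.22 ± 0.08, the galactosylceramidase Galc by 0.24 ± 0.10 with overlap, and the glucosylceramide synthase Ugcg by -0.20 ± 0.08 with 2 of 4 probe sets in that direction. Synthesis from serine had 0 of 14 apart and higher and 1 lower, with a median of 0.024. The lower one was Sptssb, a small subunit of serine palmitoyltransferase (-0.16 ± 0.08, 1 of 2 probe sets in that direction), at 4.68 in GRK2+/- and 4.84 in WT hearts and so below the 25th percentile of level. The ceramide synthases Cers6 and Cers2 and the reductase Kdsr were at 0.39 ± 0.14, 0.11 ± 0.08 and 0.12 ± 0.09, all with overlap. For Cers6, GRK2+/- heart 1 (6.05) lay inside the WT range, and hearts 2 and 3 (both 6.57) lay above it.

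**Figure D4:**
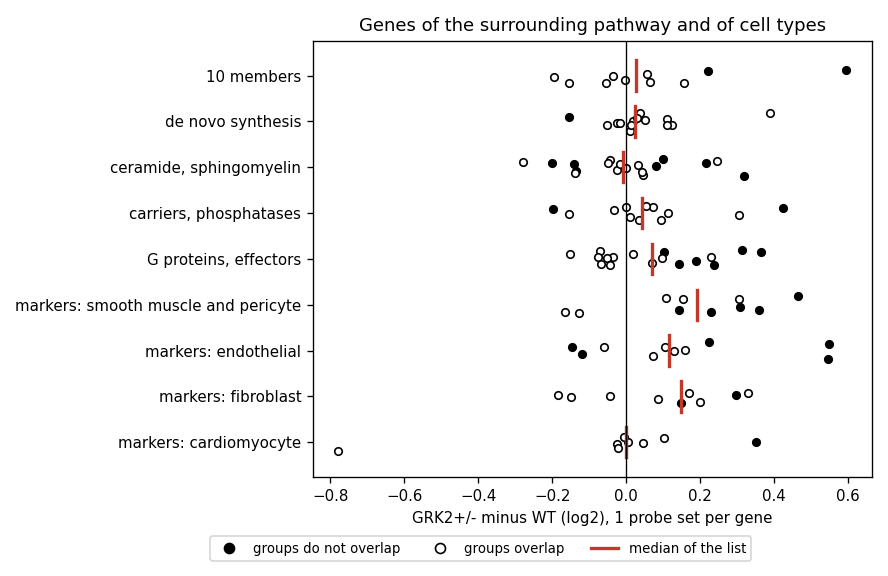
Each point is 1 gene at its difference GRK2+/- minus WT (log2, the probe set with the highest mean), filled where the groups do not overlap, with the median of each list as a red bar. The members, the 4 pathway lists and 4 cell type lists are shown: medians of the pathway lists run from -0.0087 to 0.071, and the median of smooth muscle and pericyte markers is 0.19.

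Genes whose levels followed S1pr3 most closely over the 6 arrays were sought among 9096 genes at or above the median gene level. The 5 with the highest Pearson r with the brightest S1pr3 probe set were Fnip1 (0.999), the zinc finger gene Zfp46 (0.997), the RNA-binding protein gene Celf1 (0.995), the membrane metalloproteinase gene Mmp14 (0.990) and the kinase gene Dyrk2 (0.989). Their differences between genotypes were 0.30 ± 0.07, 0.39 ± 0.08, 0.17 ± 0.07, 0.45 ± 0.09 and 0.37 ± 0.07 in that order. Such r values share the genotype step and the scaling of the same 6 arrays. With each group's mean taken out they lay between 0.911 and 0.994, and without the 2 arrays farthest from the S1pr3 median (WT hearts 1 and 3) between 0.985 and 0.999. The latter leaves WT heart 2 as the only WT heart, so it cannot part likeness from the genotype step. Being the top of 9096, these genes are given without a test. For S1pr1 the 5 genes were Alas1 (0.987), the first enzyme of heme synthesis, Depp1 (0.985), Chac1 (0.983), which degrades glutathione, the mitochondrial creatine kinase Ckmt2 (0.981) and Tsr3 (0.979). Without the 2 arrays farthest from the S1pr1 median (GRK2+/- heart 2 and WT heart 2) they were between 0.697 and 0.931.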

How the data were processed

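Hearts of 3 GRK2+/- and 3 WT mice were profiled with 1 Affymetrix array each. The authors deposited log2 expression values per probe set. RMA and limma, with no version, are named per the submitters' processing notes, and nothing used here says if the arrays were normalised as one set. Such values are relative brightness. Of 45101 probe sets, 64 controls were left out. The platform annotation gave 1 symbol to 34945 of the rest, and 34741 of these symbols came from a RefSeq gene table (GRCm38.p6) through Entrez identifiers. The other probe sets were not named.

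Genotypes were compared, GRK2+/- minus WT, with limma 3.58.1 in R 4.3.3 (lmFit, eBayes, two-sided tests) over all probe sets, and over 18193 genes using the probe set of highest mean, with Benjamini-Hochberg adjustment at 0.05. The fit was tested on simulated data. Groups were apart where the 3 values of one lay all above or all below those of the other. The members and gene lists were chosen with earlier results of these data known. Genes named were all members and, drawn from each list, up to 4 genes with the smallest p, for cell types also up to 3 with the highest level, and the 5 genes most like S1pr3 and S1pr1. Not every gene this rule selects is printed: some cardiomyocyte, atrial, ventricular, blood cell, lymphatic and epicardial markers stand only in their list's counts. Outside the rule, 2 pericyte and smooth muscle genes and the endothelial gene Pecam1 were added. A further gene that the rule names among the G proteins and effectors is not reported here. Alternatives were each heart left out, a replicate block, centring, quantile normalisation, a prior with a trend, array weights, filters on dim and on _s_at and _x_at probe sets, and another probe set per gene. Scan dates were not used here. The count of arrays limits precision.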

Additional observations from a re-analysis of the deposited data

How the results depend on the processing

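The S1pr3 difference (0.60), known when the members were chosen, kept its sign in each of 16 alternatives. It ran from 0.36 with the mean of its probe sets to 0.68, and lay between 0.50 and 0.68 when 1 heart was left out. The block, the prior with a trend, the filters on probe sets and the most variable probe set gave exactly the main value. They kept the same probe set and group means, so they did not check the sign. The median over member probe sets (0.061) stayed between 0.042 and 0.090. Member probe sets without overlap (6 of 18, against 17.9% of all probe sets) ran from 4 of 13 to 9 of 18. The 4 came without probe sets below the median level, where 20.8% of all were apart. The 9 came without WT heart 1, where separation is easier and 33.9% of all were apart. Past the threshold, against 0, leaving out 1 heart gave 0 to 41 probe sets and 0 to 56 genes. A prior with a trend gave 22 probe sets and 42 genes, array weights 12 genes, the most variable probe set 12 genes, and leaving out _s_at and _x_at probe sets 7 genes. Pathway genes without overlap (16 of 61, against 19.1% of all genes) numbered 17 to 26 of 61 with 1 heart fewer. Separation is easier there, and 25.6% to 35.5% of all genes were apart. They numbered 13 to 18 under the other alternatives except the block, with 17.7% to 20.5% of all genes apart. The filters on dim probe sets left fewer pathway genes, with 14 of 57 and 14 of 51 apart.

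The replicate numbers of the labels gave no sign of a pairing: deviations of same-numbered hearts correlated at -0.14, -0.020 and 0.0095. Those of differently numbered hearts lay between -0.099 and 0.12. With 3 hearts per group these values cannot show if the numbers stand for a pairing. With the replicate number as a block, 0 probe sets and 1 gene passed, and 26 pathway genes differed one way in all 3 number pairs (34.8% of all genes did). Small differences changed sign under at least 1 alternative for S1pr2, S1pr4, Spns2, Sphk1 and Sphk2. With another probe set, Sphk1 was 0.012 with the mean of its probe sets, Sphk2 0.12 with its most variable one, S1pr2 0.080 and Sgpp1 0.38 (in place of 0.22) with theirs. The cause was not tested. The prior and the weights leave separation of groups as it is, so no count was made there, and the stricter filter on dim probe sets left no value for S1pr5 and Sphk1. Low levels limit S1pr5, which lay below the 25th percentile. They also limit both Sphk1 probe sets, the dimmest Sgpp1 and the dimmer Sgpl1 probe set, which lay below the median. Signal over background was not measured here.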
